A study of Mus musculus with 12 samples.

Results

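Chemokines are small secreted proteins that draw leukocytes to a tissue through G protein-coupled receptors. Ccl2, Ccl5, Ccl7, Cxcl1, Cxcl5, Cxcl10 and Cxcl12 were followed here across cultured mouse aortic endothelial cells labelled as lacking the transcription factors Ets1, Ets2 or both. The members were the probe sets of an Affymetrix array whose annotation gave 1 of these 7 symbols. Of the 7 genes, 5 were found, with 8 probe sets of 20523: 1 each for Ccl2, Ccl7 and Ccl5, 3 for Cxcl1 and 2 for Cxcl12. Cxcl5 and Cxcl10 were not analysed here.

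The cells came from mice aged 4 weeks and were grown in DMEM-F12 medium with serum, heparin and endothelial growth supplement. Ets1 null cells were Ets1-/- with floxed Ets2 (Ets2 fl/fl) and received an egfp lentivirus (3 arrays). Ets2 null cells were Ets1+/+ and Ets2 fl/fl and received a lentivirus with egfp and Cre recombinase (3 arrays). Ets1/2 null cells were Ets1-/- and Ets2 fl/fl with the egfp and Cre virus (3 deposited columns, 2 of them used). Wild type cells carried both normal genes, Ets1+/+ and Ets2+/+, and received the egfp virus (3 arrays). Every group therefore carried a lentivirus with egfp, Cre came only with the loss of Ets2, and the Ets1 null cells carried a floxed Ets2 that wild type cells lacked. No wild type cells with Cre were among the samples. Grouping followed title and genotype, because the free-text descriptions of both single nulls call the lost gene wild type. The titles call the arrays biological replicates without saying whether each came from its own animal, so p-values measure the spread between these cultures.

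Ccl2 and Ccl7 attract monocytes through the receptor CCR2, Ccl5 attracts T cells and monocytes, and Cxcl1 attracts neutrophils through CXCR2. Cxcl12 is the ligand of CXCR4 and is made at rest by stromal and endothelial cells. In endothelial cells the genes of Ccl2, Ccl5, Ccl7 and Cxcl1 are known to be induced by inflammatory cytokines through NF-kappaB, and Ets1 and Ets2 are related factors that bind DNA at a GGAA core.

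Column 3 of Ets1/2 null held the mean of its columns 1 and 2 for 20521 of 20523 probe sets and was left out, which gave 11 arrays. The values of the 2 remaining arrays labelled Ets1/2 null lay lower over most genes. Their medians over the 11015 genes tested were 8.73 and 8.69 on the log2 scale, against 9.37 to 9.50 on the 9 other arrays. Each value is therefore given as deposited and, where it matters, after the array's median over all genes was subtracted ("centred"). Ets1 had log2 values of 8.31, 8.76 and 9.17 in the Ets1 null arrays, 9.50, 9.55 and 9.88 in the Ets2 null arrays, 10.02 and 10.29 in the arrays labelled Ets1/2 null and 10.26, 9.84 and 10.06 in wild type. Ets2 had 10.28, 10.37 and 10.54 in Ets1 null cells, 9.63, 9.35 and 10.13 in Ets2 null cells, 11.02 and 9.63 in the arrays labelled Ets1/2 null and 9.72, 10.01 and 10.70 in wild type. The Ets1 probe set thus went against the label Ets1/2 null, and Ets2 overlapped between every null carrying Cre and wild type. After centring, Ets1 was 1.29 and 1.60 in the arrays labelled Ets1/2 null against 0.89, 0.41 and 0.56 in wild type. It was called higher there on that scale (0.82, limma adjusted p = 0.0393), where 28.3% of genes were called, but not as deposited (0.10, 0.762). Ets1 and Ets2 were each read from the brightest probe set alone. Where these probe sets lie relative to the deleted exons is not given in the sources used here. The genotypes below are those of the labels. Wild type array 1 and the 3 Ets2 null arrays expressed the Y-linked gene Eif2s3y above a log2 value of 6 and the others did not.

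Of 14 endothelial markers, 5 were analysed (Cd34, Egfl7, Eng, Flt1 and Kdr), and Pecam1, Cdh5, Tek and Vwf were not analysed here. The mean centred level of the 5 was -1.75, -1.58 and -1.83 in Ets1 null cells, -0.63, -0.21 and -0.90 in Ets2 null cells, -1.23 and -1.57 in the arrays labelled Ets1/2 null, and 0.07, -0.77 and -1.37 in wild type. Within wild type, array 1 had the highest and array 3 the lowest mean, as they had for Ccl2. Between groups this likeness did not hold, since the arrays labelled Ets1/2 null had lower means than every Ets2 null array but higher Ccl2. Of 12 leukocyte markers, 5 were analysed (Cd14, Cd68, Csf1r, Laptm5 and Lyz2), with mean centred levels between -2.60 and -1.64 on the 11 arrays. The lowest leukocyte means were the 3 of Ets2 null and the highest was that of wild type array 3. Ptprc, the pan-leukocyte marker, was not analysed here. Fibroblast markers (9 of 10 analysed) had mean centred levels of -0.60, -0.02 and 0.17 in Ets1 null cells, -0.06, 0.58 and 1.18 in Ets2 null cells, 1.36 and 0.26 in the arrays labelled Ets1/2 null, and 0.35, 0.64 and 0.29 in wild type. Smooth muscle and pericyte markers (8 of 10 analysed) lay between -0.53 and 1.01 over the 11 arrays, and epithelial markers (3 of 5) between -1.35 and 0.89. The part of these cell types in the chemokine values was not tested. In RNA of whole cultures, fewer cells of a type and less RNA per cell cannot be told apart.

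The CC chemokines Ccl2, Ccl7 and Ccl5 shared a pattern that was already visible array by array. Wild type arrays 1 and 2 and both arrays labelled Ets1/2 null were high, and every array of either single null was lower than these 4. Wild type array 3 lay near the single nulls.

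Ccl2 had log2 values of 6.48, 7.42 and 8.65 in Ets1 null cells, 7.496, 9.25 and 6.37 in Ets2 null cells, 10.68 and 11.13 in the arrays labelled Ets1/2 null, and 14.19, 12.86 and 8.28 in wild type. Wild type array 3 lay within the range of both single nulls, and the arrays labelled Ets1/2 null lay between the 2 high wild type arrays and every single null array. The centred values kept that order, with -2.99, -2.04 and -0.84 in Ets1 null cells, -1.91, -0.14 and -3.08 in Ets2 null cells, 1.95 and 2.44 in the arrays labelled Ets1/2 null, and 4.82, 3.43 and -1.21 in wild type. Group means as deposited were 7.52 ± 1.09 in Ets1 null (SD, n = 3), 7.71 ± 1.45 in Ets2 null (n = 3), 10.90 ± 0.32 in the arrays labelled Ets1/2 null (n = 2) and 11.78 ± 3.10 in wild type (n = 3).

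Ccl7, the neighbour of Ccl2 in the RefSeq gene order (GRCm38.p6) and a ligand of the same receptor, had 5.85, 6.12 and 7.26 in Ets1 null cells, 6.24, 6.23 and 6.18 in Ets2 null cells, 9.81 and 7.69 in the arrays labelled Ets1/2 null, and 11.84, 10.04 and 6.72 in wild type. The Ets2 null arrays agreed within 0.06, a range smaller than that of all but 2.25% of genes in that group. On these arrays Ccl7 lay at percentiles 1.92 to 2.45, among the lowest probe sets. The Ets2 null arrays lay below every wild type array, whereas the Ets1 null arrays overlapped wild type through array 3 of each. Centred values were -3.62, -3.34 and -2.23 in Ets1 null cells, -3.17, -3.17 and -3.27 in Ets2 null cells, 1.07 and -0.997 in the arrays labelled Ets1/2 null, and 2.47, 0.61 and -2.78 in wild type.

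Ccl5 had 6.24, 6.18 and 6.80 in Ets1 null cells, 6.48, 6.48 and 5.87 in Ets2 null cells, 8.28 and 7.94 in the arrays labelled Ets1/2 null, and 8.27, 8.57 and 6.97 in wild type. All 6 single null arrays lay below all 3 wild type arrays, and both arrays labelled Ets1/2 null lay above all 6. The single null values lay at percentiles 1.52 to 7.32 of their arrays. After centring the values were -3.23, -3.28 and -2.69 in Ets1 null cells, -2.93, -2.91 and -3.58 in Ets2 null cells, -0.45 and -0.75 in the arrays labelled Ets1/2 null, and -1.10, -0.86 and -2.53 in wild type. On that scale the arrays labelled Ets1/2 null were above every other array, wild type included.

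**Figure D1:**
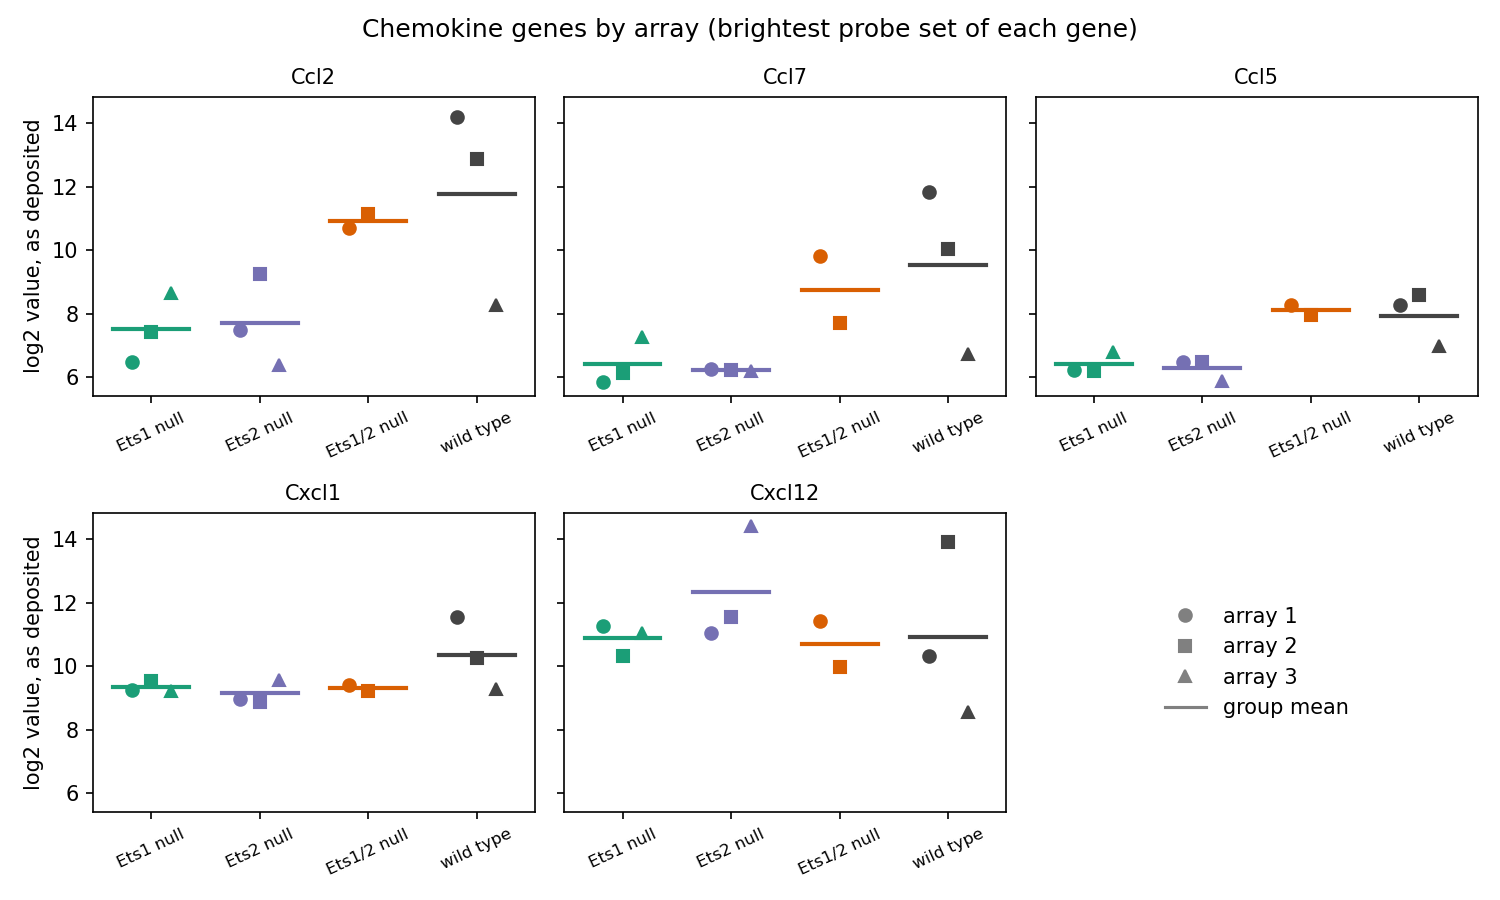
Log2 values as deposited (vertical axis) of the 5 chemokine genes, each by its brightest probe set, on the 3 Ets1 null, 3 Ets2 null, 2 Ets1/2 null (as labelled) and 3 wild type arrays; the symbol shows the array number and the bar the group mean. Wild type Ccl2 spreads between 8.28 and 14.19, while the Ets2 null arrays of Ccl7 agree within 0.06, at percentiles 1.92 to 2.45 of their arrays.

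**Figure D2:**
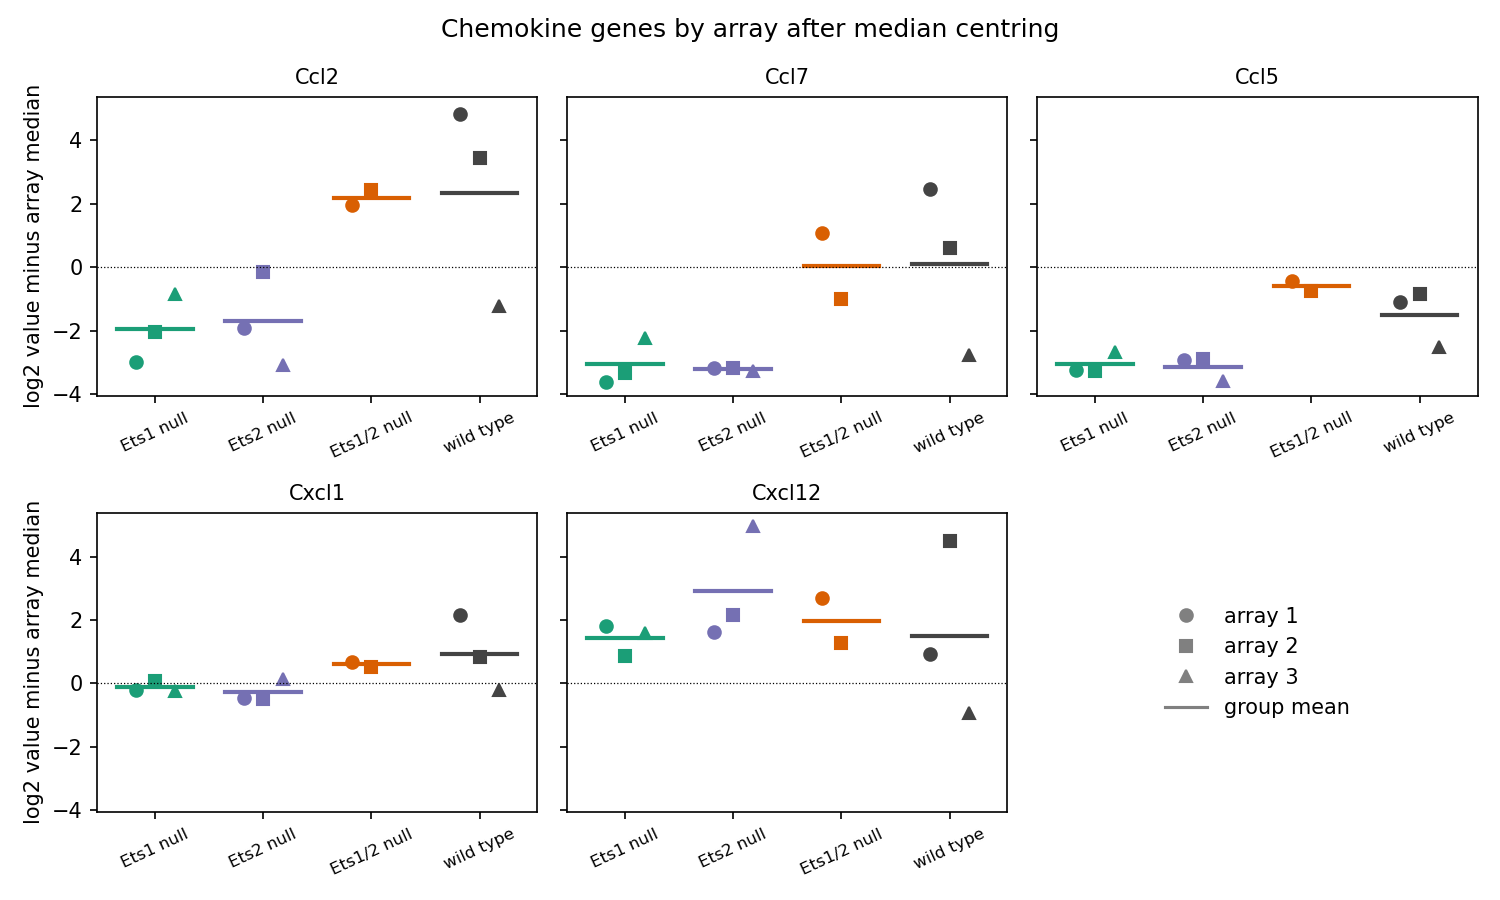
The same 5 genes and arrays after each array's median over all genes was subtracted (vertical axis, log2 value minus array median; bars are group means). The 2 arrays labelled Ets1/2 null reach 1.95 and 2.44 for Ccl2, above all 6 single null arrays, and -0.45 and -0.75 for Ccl5, above all 9 other arrays.

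Cxcl1 was read by 3 probe sets that disagreed in size. The brightest on average, 1441855_x_at, represented the gene in the fit and had 9.26, 9.53 and 9.24 in Ets1 null cells, 8.96, 8.89 and 9.58 in Ets2 null cells, 9.40 and 9.22 in the arrays labelled Ets1/2 null, and 11.54, 10.28 and 9.28 in wild type. As deposited, only wild type arrays 1 and 2 stood above the rest on this probe set. Centred values were -0.21, 0.07 and -0.25 in Ets1 null cells and -0.45, -0.50 and 0.13 in Ets2 null cells. They were 0.67 and 0.53 in the arrays labelled Ets1/2 null, and 2.17, 0.85 and -0.21 in wild type. On that scale both arrays labelled Ets1/2 null also lay above every single null array and wild type array 3. The probe set 1419209_at spanned far more, with 5.14, 5.68 and 5.30 in Ets1 null cells, 4.92, 5.08 and 4.99 in Ets2 null cells, 8.84 and 7.94 in the arrays labelled Ets1/2 null, and 13.47, 11.48 and 5.94 in wild type. There the single null arrays lay among the lowest probe sets of their arrays, at percentiles 0.26 to 0.87, all below wild type, and both arrays labelled Ets1/2 null lay in the gap between wild type array 3 and the other wild type arrays. The probe set 1457644_s_at had 7.79, 7.97 and 8.06 in Ets1 null cells, 7.81, 8.18 and 8.01 in Ets2 null cells, 9.29 and 8.33 in the arrays labelled Ets1/2 null, and 13.42, 11.71 and 8.01 in wild type. There too the arrays labelled Ets1/2 null lay between the single nulls and wild type arrays 1 and 2. Wild type array 3, however, lay inside the range of the single nulls. The Ets1 null and Ets2 null arrays overlapped, whereas on 1419209_at every Ets2 null array lay below every Ets1 null array. The suffixes _x_at and _s_at mark probe sets that can also match other transcripts.

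**Figure D3:**
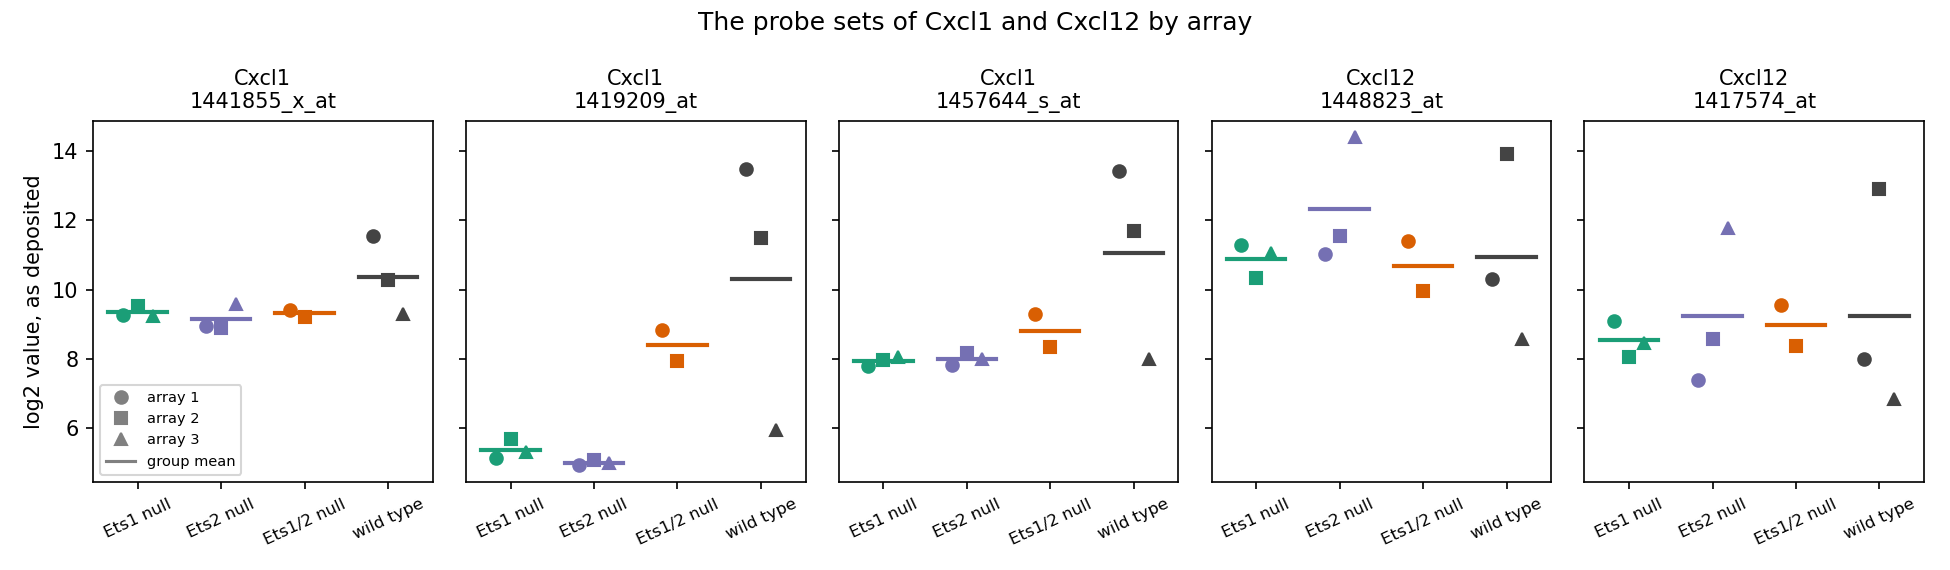
Log2 values as deposited (vertical axis) of the 3 Cxcl1 and 2 Cxcl12 probe sets by array, with the groups along the horizontal axis and bars at group means. The Ets2 null arrays are at 4.92 to 5.08 on 1419209_at but at 8.89 to 9.58 on 1441855_x_at, and Cxcl12 is highest in wild type array 2 and Ets2 null array 3 on both of its probe sets.

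Cxcl12 followed no such pattern. Its brighter probe set, 1448823_at, had 11.28, 10.33 and 11.06 in Ets1 null cells, 11.04, 11.54 and 14.41 in Ets2 null cells, 11.42 and 9.97 in the arrays labelled Ets1/2 null, and 10.31, 13.93 and 8.57 in wild type. Ets2 null array 3 and wild type array 2 stood above all others, and each of the null groups overlapped wild type. The other probe set, 1417574_at, had 9.08, 8.05 and 8.47 in Ets1 null cells, 7.39, 8.59 and 11.77 in Ets2 null cells, 9.57 and 8.37 in the arrays labelled Ets1/2 null, and 8.0015, 12.90 and 6.85 in wild type, with the same highest arrays in exchanged order. Fibroblast markers had their highest mean centred level within Ets2 null on array 3 (1.18) and within wild type on array 2 (0.64). Among the arrays labelled Ets1/2 null, array 1 had the higher level of both, with a marker mean of 1.36 and a centred Cxcl12 value of 2.68, against 0.26 and 1.27 on array 2. Within Ets1 null the order differed, since array 1 had the lowest marker mean (-0.60) and the highest centred Cxcl12 value (1.81). The part of these markers in the Cxcl12 values was not tested.

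The 250 bases before the start of Cxcl1 and Cxcl12 are shown because these were the 2 of 5 members with a promoter sequence in the RefSeq table (GRCm38.p6, plus strand, 5′ to 3′). The Cxcl1 window is chr5:90890995-90891244 and the Cxcl12 window chr6:117168285-117168534. Capitals mark matches on either strand to the NF-kappaB pattern, GGG and TTCC with any 3 bases between them, and to CCGGAA, an extended form of the ETS core.
Cxcl1: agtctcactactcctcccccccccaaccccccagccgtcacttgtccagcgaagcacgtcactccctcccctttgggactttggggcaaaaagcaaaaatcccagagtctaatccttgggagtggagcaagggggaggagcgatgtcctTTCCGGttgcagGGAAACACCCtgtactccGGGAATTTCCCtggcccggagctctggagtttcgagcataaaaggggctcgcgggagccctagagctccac
Cxcl12: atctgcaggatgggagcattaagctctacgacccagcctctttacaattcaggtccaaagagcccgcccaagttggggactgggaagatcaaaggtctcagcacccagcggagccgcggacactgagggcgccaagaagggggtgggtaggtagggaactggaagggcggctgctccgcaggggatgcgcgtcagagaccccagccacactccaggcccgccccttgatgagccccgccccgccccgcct
The Cxcl1 window held 3 matches to the NF-kappaB pattern, at 89 to 80, 71 to 62 and 70 to 61 bases before the start, the last 2 overlapping on opposite strands. It held 1 match to CCGGAA at 101 to 96 bases before the start, and 4 GGAA cores, 3 of which overlap the NF-kappaB matches. The Cxcl12 window held 3 GGAA cores and no match to the NF-kappaB pattern or CCGGAA, and neither window held the AP-1 pattern TGANTCA. Of 32817 windows of this length, 4.65% held the NF-kappaB pattern, 12.02% CCGGAA, 93.44% GGAA and 6.75% TGANTCA. The patterns were picked after the sequences had been seen, and a match is a description of letters, not of binding.

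The wild type arrays spread more widely in the 5 members than in most genes. The range over the 3 wild type arrays was 5.90 for Ccl2, 5.12 for Ccl7, 1.60 for Ccl5, 2.25 for Cxcl1 and 5.36 for Cxcl12 on the log2 scale, against a median of 0.47 over all genes. It exceeded the wild type range of 99.92% of genes for Ccl2, 99.75% for Ccl7, 91.74% for Ccl5, 95.71% for Cxcl1 and 99.83% for Cxcl12. After centring, wild type array 3 minus the mean of the other wild type arrays was -5.34 for Ccl2, -4.32 for Ccl7, -1.55 for Ccl5, -1.72 for Cxcl1 and -3.65 for Cxcl12. Each comparison with wild type is therefore also given without that array. It was singled out by the members' own values, so leaving it out raises their wild type means and narrows their spread. Calls made without it are not independent of that choice. Leaving out wild type array 1 or wild type array 2 instead called 0 members in each comparison with wild type.

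The loss of a single factor was compared with wild type by limma across all 11015 genes, with Benjamini-Hochberg adjustment over all of them. In Ets1 null cells Ccl2, Ccl7, Ccl5 and Cxcl1 had lower means than wild type, but none of the 5 members was called at an adjusted p under 0.05. In this comparison 0.00908% of all genes were called, and 8.62% had an unadjusted p under 0.05, against 3 of 5 members (Ccl2, Ccl7 and Ccl5). The log2 differences were -4.26 ± 1.38 for Ccl2 (SE, adjusted p = 0.502), -3.12 ± 1.11 for Ccl7 (0.522) and -1.53 ± 0.39 for Ccl5 (0.365). Cxcl1 differed by -1.02 ± 0.47 (adjusted p = 0.594) and Cxcl12 by -0.04 ± 1.30 (0.996). Ccl5 was the member with every Ets1 null array below every wild type array, a separation that 9.08% of genes showed. The median difference of the 5 members was -1.53, against 0.01 over all genes. Without wild type array 3, Ccl2 (-6.01, adjusted p = 0.0499) and Ccl5 (-2.01, 0.0471) were called and Ccl7 was not (-4.53, 0.0629), where 0.309% of genes were called. After centring, the fit without that array called Ccl5 (-2.09, adjusted p = 0.0334) and no longer Ccl2 (-6.08, 0.0511).

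In Ets2 null cells the same members had lower means than wild type and again none of the 5 was called, where 0.3% of genes were. An unadjusted p under 0.05 was reached by 4 of 5 members (Ccl2, Ccl7, Ccl5 and Cxcl1) and by 19% of genes. Ccl5 came closest, at -1.66 ± 0.39 (SE, adjusted p = 0.0967). Ccl2 differed by -4.07 ± 1.38 (adjusted p = 0.176), Ccl7 by -3.31 ± 1.11 (0.174), Cxcl1 by -1.22 ± 0.47 (0.217) and Cxcl12 by 1.40 ± 1.30 (0.594). Ccl7 and Ccl5 had every Ets2 null array below every wild type array, as 14.1% of genes did. The members' median difference was -1.66, against -0.02 over all genes. Without wild type array 3, Ccl2 (-5.82, adjusted p = 0.0385), Ccl7 (-4.72, 0.0386) and Ccl5 (-2.14, 0.0224) were called, where 0.626% of genes were, and the same 3 were called after centring. The Cxcl1 probe set 1419209_at, fitted over all probe sets, differed by -4.93 ± 1.5 in Ets1 null (adjusted p = 0.436) and by -5.30 ± 1.5 in Ets2 null (0.111). Without wild type array 3 it differed by -7.11 in Ets1 null (adjusted p = 0.0033) and by -7.48 in Ets2 null (0.00234), and was called in both. The probe set 1457644_s_at differed by -3.11 ± 1.08 in Ets1 null (adjusted p = 0.47) and by -3.05 ± 1.08 in Ets2 null (0.167), and without wild type array 3 it was called in both (-4.63, 0.0128, and -4.56, 0.00835). Both single nulls were set against the same wild type arrays, so their differences share that group's spread. The Ets2 null arrays were all from cells expressing the Y-linked gene, as was wild type array 1. With a term for these arrays, Ccl2 differed by -6.48 in Ets2 null (adjusted p = 0.325). Wild type was the only group with arrays of both kinds, so this sets Ets2 null against wild type array 1 alone. That array had the highest Ccl2 value (14.19).

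Cells labelled as lacking both factors were compared with wild type next. No member was called in this comparison, although 45.9% of genes were as deposited and 28.3% after centring, and none reached an unadjusted p under 0.05, which 53.8% of genes did. Ccl2 differed by -0.87 ± 1.54 (SE, adjusted p = 0.665; 95% interval -4.36 to 2.61) and Ccl7 by -0.78 ± 1.25 (0.631; -3.60 to 2.03). The intervals leave room for differences as large as those of the single nulls, so likeness to wild type was not shown. Ccl5 differed by 0.18 ± 0.44 as deposited (adjusted p = 0.765) and by 0.90 ± 0.46 after centring (0.176). Cxcl1 differed by -1.05 ± 0.53 (adjusted p = 0.131) and Cxcl12 by -0.24 ± 1.46 (0.904). The second Cxcl12 probe set, 1417574_at, differed by -0.28 ± 1.71 here (adjusted p = 0.904) and by -0.72 ± 1.53 in Ets1 null (0.92). The members' median was -0.78, against -0.61 over all genes. Without wild type array 3, Cxcl1 was called (-1.59, adjusted p = 0.0129), while Ccl2 (-2.62, 0.0601) and Ccl7 (-2.19, 0.0558) were not, and Ccl5 turned sign (-0.31, 0.422). That fit called 43.3% of all genes, 40.5% as lower, and after centring it called no member, with Cxcl1 at -0.91 (adjusted p = 0.128). The Cxcl1 probe set 1419209_at differed by -1.91 ± 1.68 (adjusted p = 0.374), and by -4.09 without wild type array 3 (0.000698), where 1457644_s_at differed by -3.75 (0.000624).

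Against each single null, the arrays labelled Ets1/2 null were higher in Ccl2, Ccl7 and Ccl5 on every array, and Ccl5 was called. Against Ets1 null, Ccl5 was 1.70 ± 0.44 higher as deposited (SE, adjusted p = 0.0119), a 3.26-fold difference, and 2.47 ± 0.46 higher after centring (0.00525). It was the 1 member of 5 called at either scale, where 1.72% of genes were called higher as deposited and 17.4% after centring. Ccl2 differed by 3.39 ± 1.54 (adjusted p = 0.105; centred 4.15, 0.0763) and Ccl7 by 2.34 ± 1.25 (0.157; centred 3.10, 0.0961). The complete separation seen in these 3 members of 5 as deposited occurred in 5.66% of genes. After centring 4 of 5 members were separated, Cxcl1 being the fourth, as were 36.2% of genes. Cxcl1 differed by -0.03 ± 0.53 (adjusted p = 0.968), or 0.73 after centring, and Cxcl12 by -0.20 ± 1.46 (0.926). The Cxcl1 probe set 1419209_at differed by 3.01 ± 1.68 (adjusted p = 0.17) with no overlap between the groups.

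Against Ets2 null, Ccl5 was 1.84 ± 0.44 higher in the arrays labelled Ets1/2 null as deposited (SE, adjusted p = 0.00812) and 2.54 ± 0.46 higher after centring (0.0042). Again it was the 1 member of 5 called, where 3% of genes were called higher as deposited and 17.1% after centring. Ccl2 differed by 3.20 ± 1.54 (adjusted p = 0.119), Ccl7 by 2.53 ± 1.25 (0.125) and the Cxcl1 probe set 1419209_at by 3.39 ± 1.68 (0.124), each with no overlap, as in 6.63% of genes. After centring Cxcl1 by its brightest probe set was separated too, as were 32.3% of genes. Cxcl1 by its brightest probe set differed by 0.17 ± 0.53 and Cxcl12 by -1.64 ± 1.46 (adjusted p = 0.389). The members' median differences were 1.70 against Ets1 null and 1.84 against Ets2 null, where the medians over all genes were -0.59 and -0.57. Leaving out array 1 labelled Ets1/2 null, which leaves 1 array in that group whose spread is taken from the others, ended the Ccl5 call against Ets1 null (1.53, adjusted p = 0.0726) and against Ets2 null (1.67, 0.0531). Without wild type array 3, which enters here through the shared spread alone, Ccl2 and Ccl7 were called too, with adjusted p of 0.0147 and 0.0292 against Ets1 null and 0.018 and 0.0204 against Ets2 null. In that fit 47.3% of genes were called against Ets1 null and 49.1% against Ets2 null, but 2.05% and 3.46% as higher. With a term for the arrays expressing the Y-linked gene, the Ccl5 call against Ets2 null ended (2.33, adjusted p = 0.062). That term rests on the difference of wild type array 1 from the other wild type arrays.

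**Figure D4:**
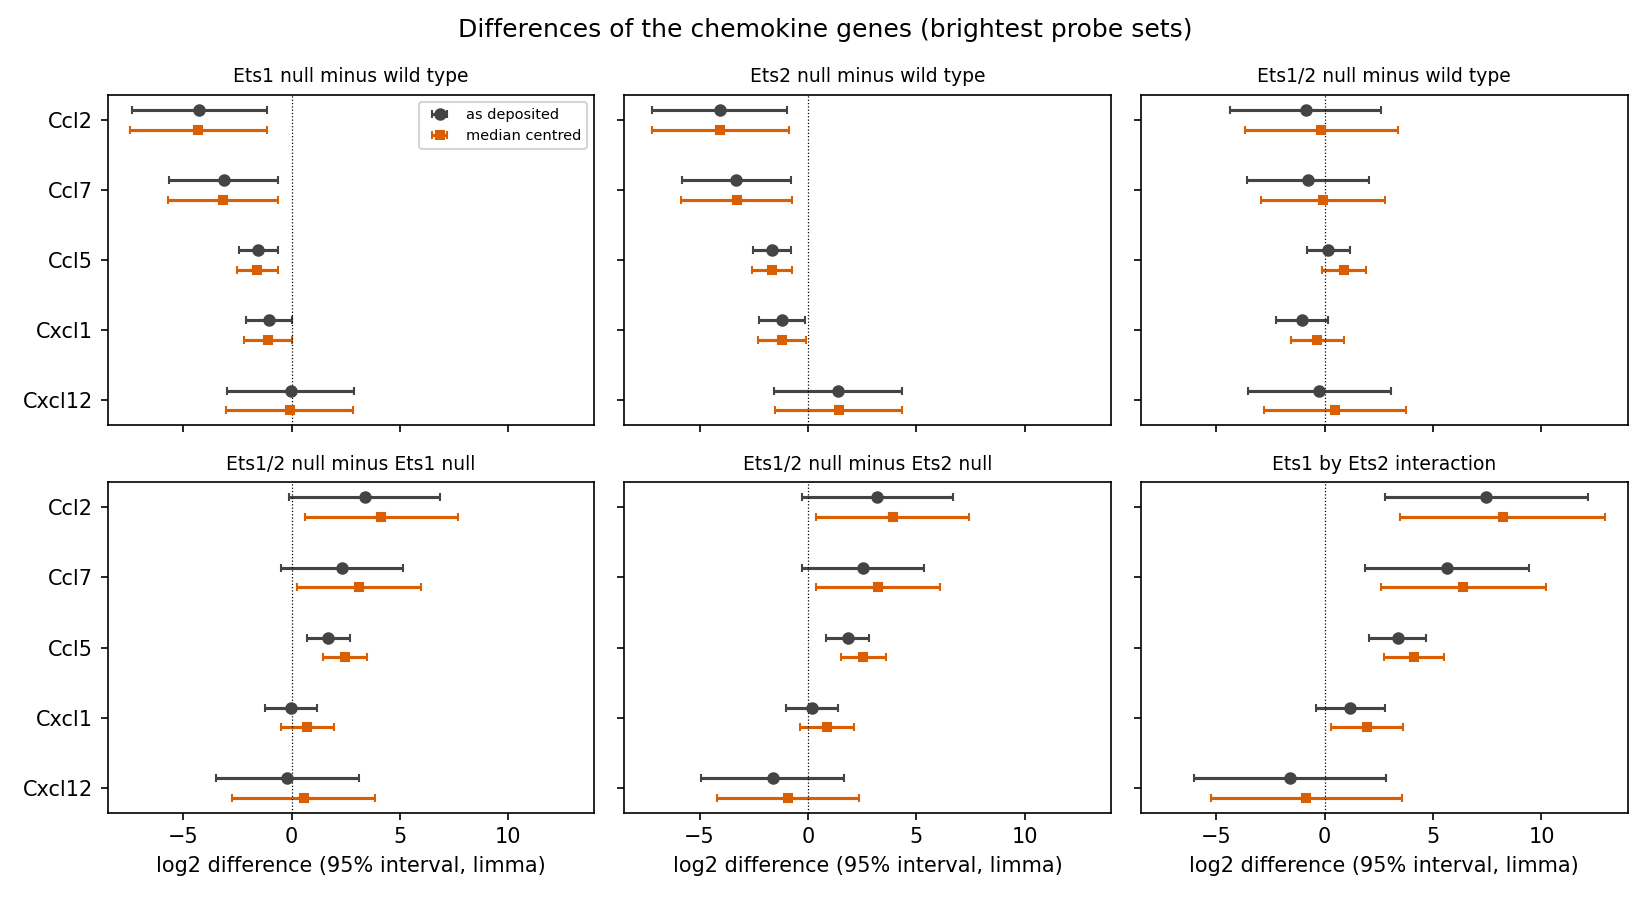
Log2 differences of the 5 chemokine genes in the 6 comparisons, as deposited and after centring, with 95% intervals from limma. The interaction of Ccl5 is 3.36 as deposited with an interval of 2.03 to 4.70, and those of Ccl2 and Ccl7 also lie wholly above 0.

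Whether the loss of Ets2 acted differently with and without Ets1 was tested by the interaction, the Ets2 difference in Ets1 null cells minus that in cells with Ets1. Both groups of the first difference were Ets2 fl/fl, and none of their arrays expressed the Y-linked gene. In the second, Ets2 null was Ets2 fl/fl and wild type Ets2+/+, and all Ets2 null arrays but only wild type array 1 expressed that gene. Both differences enter the interaction and cannot be told apart from a dependence on Ets1. Ccl2, Ccl7 and Ccl5 were called, 3 of 5 members, all positive, where 1.51% of genes were called with a positive sign as deposited and 7.54% after centring. In these members the Ets2 difference was negative in cells with Ets1, where none was called, and positive in cells labelled as lacking Ets1, where Ccl5 was called. Ccl5 had an interaction of 3.36 ± 0.59 (SE, adjusted p = 0.003; centred 4.11, 0.00446), Ccl2 of 7.46 ± 2.07 (0.0238; centred 8.20, 0.0325) and Ccl7 of 5.66 ± 1.67 (0.0303; centred 6.403, 0.0368). Cxcl1 was not called by its brightest probe set (1.19 ± 0.71, adjusted p = 0.233), but its probe set 1419209_at gave 8.32 ± 2.25 (0.019; centred 9.07, 0.0258). The third Cxcl1 probe set gave 3.92 ± 1.61 (adjusted p = 0.0885), and Cxcl12 -1.59 ± 1.96 (0.576). The median of the 5 members was 3.36, against -0.57 over all genes.

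The interaction of Ccl5 was called when each of the 11 arrays was left out in turn, with values of 3.05 to 3.85. That of Ccl2 was called in 6 and that of Ccl7 in 5 of these 11 fits as deposited. After centring, the counts were 11 for Ccl5, 2 for Ccl2 and 3 for Ccl7. Both calls ended without Ets1 null array 1 (adjusted p = 0.0521 for Ccl2 and 0.0629 for Ccl7), Ets1 null array 2 (0.0509 and 0.0654), array 1 labelled Ets1/2 null (0.0594 and 0.115) or wild type array 2 (0.0525 and 0.0632). The Ccl2 call also ended without array 2 labelled Ets1/2 null (adjusted p = 0.067), and the Ccl7 call without Ets2 null array 1 (0.0581) or array 2 (0.0566). Without wild type array 3 the interactions were larger, at 9.20 for Ccl2 (adjusted p = 0.00152), 7.06 for Ccl7 (0.00194) and 3.85 for Ccl5 (0.000423), and that of Cxcl1 was called as well (1.73, 0.0327). The interaction is drawn from arrays whose Ets1 signal went against their label, and on these arrays the Ets1 probe set itself had an interaction of 1.82 ± 0.34 (adjusted p = 0.00408).

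Across the 11 arrays the genes most alike in pattern to each member were found by the mean absolute difference between centred values, each gene taken relative to its own mean. Saa3, an acute-phase serum amyloid, was nearest to Ccl7 (0.59) and to Ccl2 (1.10), with log2 values of 6.86, 7.17 and 7.62 in Ets1 null cells, 6.64, 7.13 and 6.86 in Ets2 null cells, 10.90 and 6.86 in the arrays labelled Ets1/2 null, and 11.71, 12.01 and 6.57 in wild type. It shared the high wild type arrays 1 and 2 and the low wild type array 3, but only 1 of the arrays labelled Ets1/2 null was high. Rpgrip1 came next for Ccl2 (1.11) and Gpr176 for Ccl7 (0.68). Ccl5 was nearest to Zc3h12a (0.37), which encodes an RNase that degrades cytokine mRNAs, and to Nfkbia (0.39), which encodes the NF-kappaB inhibitor I-kappa-B alpha. Nfkbia had 12.07, 12.52 and 12.43 in Ets1 null cells, 11.83, 12.33 and 12.04 in Ets2 null cells, 13.19 and 13.37 in the arrays labelled Ets1/2 null, and 13.72, 13.34 and 12.16 in wild type. Cxcl1 was nearest to Trim30a (0.22) and Nfkbie (0.26), and Cxcl12 to Rasl11a (0.69) and Lpcat2 (0.74). Among the members the nearest pairs were Ccl5 with Cxcl1 (0.64) and Ccl2 with Ccl7 (0.87). The distances are smaller for genes that vary less, and they are descriptions of these 11 arrays.

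The other chemokine ligands were called lower or not at all as deposited, apart from Ccl25. Of 33 listed, 9 were analysed (Ccl4, Ccl9, Ccl17, Ccl24, Ccl25, Ccl27a, Cx3cl1, Cxcl16 and Cxcl17). None of the 9 was called in either single null. In the arrays labelled Ets1/2 null, 3 of 9 were called lower than wild type (Ccl4, Ccl24 and Cxcl17), as were 43.6% of genes. Against Ets1 null 4 of 9 were called lower (Ccl17, Ccl24, Cxcl17 and Cx3cl1), as were 42.8% of genes, and against Ets2 null 4 of 9 (Ccl4, Ccl24, Cxcl17 and Cx3cl1), as were 43.3%. None of these calls held after centring, where Ccl25 was called higher against each single null (0.83, adjusted p = 0.0221, and 1.02, 0.00883). Ccl25, which attracts lymphocytes to gut and thymus, was the one called in the interaction at both scales (0.88 ± 0.29, adjusted p = 0.0463; centred 1.63, 0.00907). Cx3cl1, the membrane-bound fractalkine, ran the other way as deposited, with an interaction of -3.01 ± 0.87 (adjusted p = 0.0275), which was not called after centring (-2.26, 0.119). Cx3cl1 had 12.20, 12.61 and 12.57 in Ets1 null cells, 12.67, 12.63 and 11.64 in Ets2 null cells, 9.49 and 11.25 in the arrays labelled Ets1/2 null, and 11.22, 12.49 and 10.46 in wild type. The median interaction of the 9 was -0.34 as deposited and 0.41 after centring, so its sign depended on the scaling. Of 23 chemokine receptors, 3 were analysed, and none of Ackr3, Ackr4 and Ccr2 was called at both scales in any of the 6 comparisons. Ccr2, the receptor of Ccl2 and Ccl7, had 7.89, 8.003 and 7.82 in Ets1 null cells, 7.85, 7.85 and 8.10 in Ets2 null cells, 7.27 and 7.37 in the arrays labelled Ets1/2 null, and 8.08, 7.75 and 8.05 in wild type.

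Among 24 listed regulators of NF-kappaB, 18 were analysed, and 4 had a positive and 2 a negative interaction called at both scales, where 1.51% and 6.94% of genes did. Nfkbiz, an inducible nuclear I-kappa-B protein, had the largest positive value (4.24 ± 0.51, adjusted p = 0.000522). It was also lower in Ets2 null than in wild type (-2.86 ± 0.34, adjusted p = 0.0272). Its log2 values were 10.002, 9.87 and 9.31 in Ets1 null cells, 8.19, 9.11 and 8.81 in Ets2 null cells, 10.83 and 11.39 in the arrays labelled Ets1/2 null, and 11.64, 12.05 and 10.99 in wild type. Tnfaip3, which encodes the feedback inhibitor A20, had an interaction of 3.90 ± 1.0 (adjusted p = 0.0174) and Nfkbia of 1.95 ± 0.53 (0.0217). The fourth was Bcl3 (1.25 ± 0.41, adjusted p = 0.0449), named after its value was seen. The 2 negative ones were Rela, which encodes the p65 subunit (-1.74 ± 0.21, adjusted p = 0.000511), and Traf2, an adaptor of tumour necrosis factor receptors named after its value was seen (-1.57 ± 0.24, 0.00148). The median interaction of the 18 was -0.21 as deposited and 0.54 after centring, against -0.57 and 0.18 over all genes. Rela was also lower in the arrays labelled Ets1/2 null than in wild type (-1.97 ± 0.16, adjusted p = 3.14e-05; centred -1.25, 0.0016). Nfkb2 was lower there too (-2.76 ± 0.38, 0.000479; centred -2.04, 0.00668).

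Inducible cytokine and acute-phase genes were analysed in 10 of 15 cases. At both scales 3 had a positive and none a negative interaction, where 1.51% and 6.94% of genes did. The positive ones were Ptgs2, the inducible cyclooxygenase (6.97 ± 1.11, adjusted p = 0.00189), Lcn2, an iron-binding acute-phase protein (8.61 ± 2.31, 0.0209), and the cytokine Lif (6.28 ± 1.80, 0.0271). Ptgs2 had 8.40, 8.17 and 8.81 in Ets1 null cells, 5.88, 6.09 and 4.25 in Ets2 null cells, 11.58 and 11.41 in the arrays labelled Ets1/2 null, and 9.99, 10.50 and 7.52 in wild type. Lcn2 had 5.94, 5.49 and 9.24 in Ets1 null cells, 5.77, 9.98 and 7.57 in Ets2 null cells, 11.63 and 13.13 in the arrays labelled Ets1/2 null, and 13.12, 11.59 and 7.98 in wild type. As for Ccl2, both genes had wild type array 3 lowest of its group. The median interaction of the 10 was 0.32 as deposited and 1.06 after centring. Not all went this way. In the arrays labelled Ets1/2 null, 3 of 10 were called lower than wild type as deposited, as were 43.6% of genes. Of these, Il1rn, named after its value was seen, was also called after centring (-2.20, limma adjusted p = 9.54e-05, centred -1.48, 0.00223). It was called lower at both scales against Ets1 null (-1.86) and Ets2 null (-1.76) too. The lists of leukocyte adhesion genes (8 of 12 analysed) and interferon-response genes (16 of 26) had no positive interaction at both scales, and 1 and 0 negative ones. Their median interactions as deposited were 0.36 for adhesion and -0.34 for interferon response, and 1.10 and 0.41 after centring. The adhesion gene was Cd99 (-4.19 ± 0.52, adjusted p = 0.000604; centred -3.44, 0.00554), a surface protein used by leukocytes in crossing the endothelium.

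**Figure D5:**
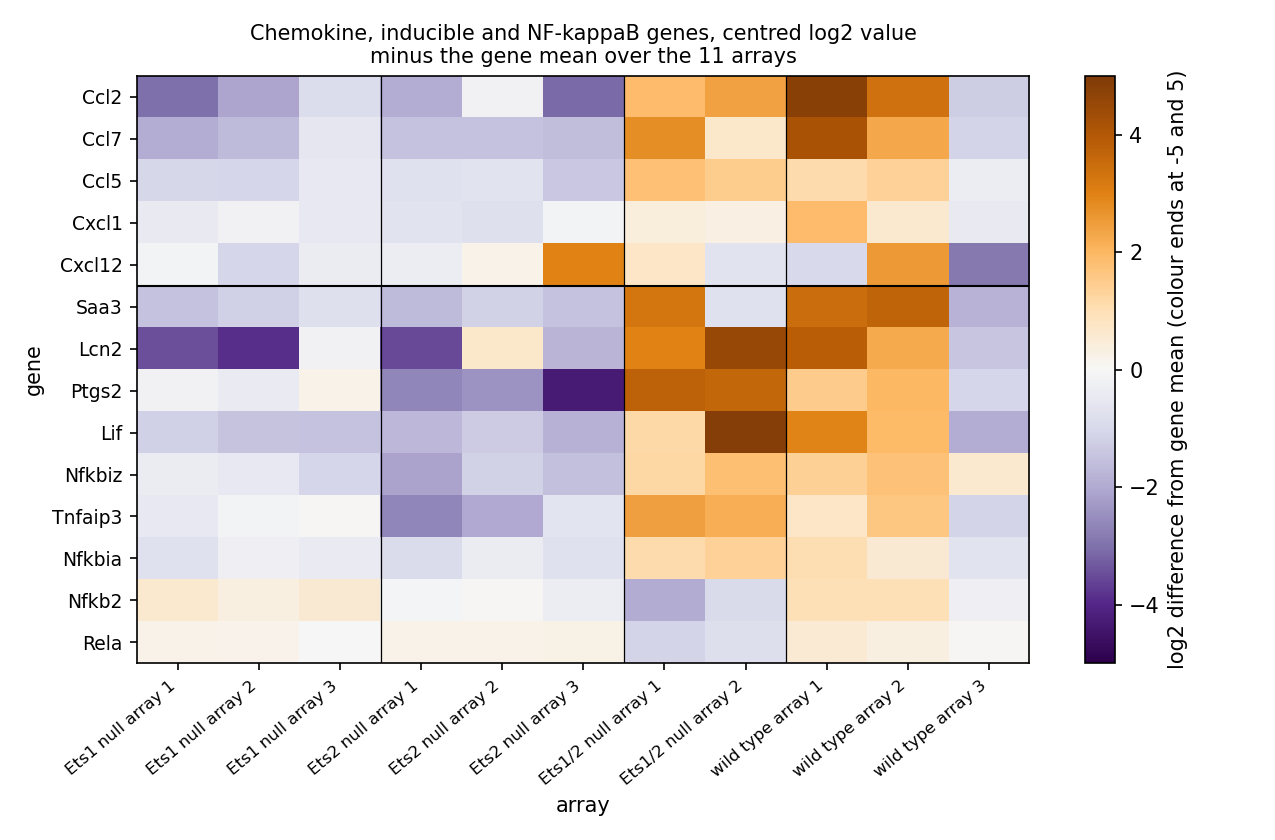
Centred log2 values relative to each gene's own mean (colour) for the chemokine members and genes of the other lists (rows) on the 11 arrays (columns, Ets1 null, Ets2 null, arrays labelled Ets1/2 null, then wild type). Wild type arrays 1 and 2 and both arrays labelled Ets1/2 null are high in Ccl2 and Ccl5, and wild type array 3 is low in Ccl2, Lcn2 and Lif.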

How the data were processed

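Gene expression was measured on 12 Affymetrix arrays in 4 groups. The authors deposited log2 values, 1 per probe set, made with RMA per the submitters' processing notes. The sources used here do not give its version, any filter or whether RMA was run on all arrays at once. The number of arrays limits the precision. Ets1/2 null column 3 was the average of columns 1 and 2 in 99.9903% of probe sets (within 1e-06, largest deviation 0.585) and was left out. Samples were grouped by title and genotype.

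Each of 11015 genes with 1 symbol was read from its brightest probe set on average, and 4785 genes had several. limma 3.58.1 in R 4.3.3 fitted 1 mean per group over 11 arrays (7 residual degrees of freedom, two-sided), as deposited and after subtracting each array's median. Calls were made under an adjusted p of 0.05 (Benjamini-Hochberg). Every probe set of a member was also tested in a fit over all 20523 probe sets. Entrez identifiers of 18788 probe sets matched RefSeq (GRCm38.p6), used for names, neighbours and the printed sequences; the array files name no build. pandas 2.3.3 and matplotlib 3.10.9 made tables and plots. The fits were run on simulated data for the comparisons with wild type only, not for the interaction. The simulated data held no outlying array and no arrays with a lower median.

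The members and lists were chosen with earlier results of these data known. Named beside members were Ets1, Ets2, up to 4 genes per list (those called with the largest difference, otherwise the smallest adjusted p) and the 2 genes most alike to each member. Over 15 pairs of same-numbered arrays the correlation of deviations ran from -0.325 to 0.104, with 1 pair over 0.1. Over 30 differently numbered pairs it ran from -0.221 to 0.325, with 10 over 0.1. The deviations of the 2 arrays labelled Ets1/2 null mirror each other by construction, which forces their correlations into opposite pairs. Alternatives were each array left out, median centring, quantile normalisation, the mean of probe sets, array weights, a term for male arrays (those with Eif2s3y above 6), the third column included, only the compared groups, the lowest 25% of genes left out and a replicate block.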

Additional observations from a re-analysis of the deposited data

Results flagged for a closer look

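The Ets1 by Ets2 interaction tests whether the loss of Ets2 went with a different change in Ets1 null cells than in cells with Ets1. It passed the threshold for 4 of 8 probe sets of the chemokines by limma. The adjusted p is over all genes for Ccl5, Ccl2 and Ccl7 and over all probe sets for Cxcl1. Of all genes, 1.51% were called with a positive sign. Ccl5 differed by 3.36 on the log2 scale (adjusted p = 0.003), Ccl2 by 7.46 (0.0238) and Ccl7 by 5.66 (0.0303). The Cxcl1 probe set 1419209_at differed by 8.32 (adjusted p = 0.019). The other Cxcl1 probe sets, 1441855_x_at and 1457644_s_at, were not called (limma adjusted p = 0.233 and 0.0885). In all 4 called probe sets the loss of Ets2 went with higher values in arrays labelled Ets1/2 null than in Ets1 null. In these it also went with lower means in Ets2 null than in wild type. Each call rests on 2 arrays labelled Ets1/2 null, whose Ets1 signal went against their label. The floxed Ets2 and the Y-linked gene differed between Ets2 null and wild type but not between Ets1/2 null and Ets1 null. Their part in the interaction cannot be told apart from that of Ets1. The Ccl2 and Ccl7 calls ended without wild type array 2, among other arrays.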

How the results depend on the processing

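Leaving out each array in turn gave 0 to 2 members called for Ets1 null against wild type, 0 to 3 for Ets2 null against wild type, 0 to 1 for the arrays labelled Ets1/2 null against wild type, 0 to 3 against each single null, and 1 to 4 for the interaction. The highest counts came without wild type array 3, where 0.309%, 0.626% and 43.3% of genes were called against wild type, in that order. In that fit 2.05% and 3.46% of genes were called higher against Ets1 null and Ets2 null, and 1.78% in the interaction. Array weights gave wild type array 3 a weight of 0.303 and Ets2 null array 3 one of 0.296. They called 3 members for Ets1 null, with 1.73% of genes, and 4 for Ets2 null, with 9.48%. Including the third column labelled Ets1/2 null called 1 for Ets2 null. Fitting only the compared groups called 2 against Ets1 null and 3 against Ets2 null, all higher, as were 1.88% and 2.48% of genes. Leaving out the lowest 25% of genes, which removes Ccl5 and Ccl7, called 0, 0 and 1 against Ets1 null, against Ets2 null and in the interaction. These counts are over Ccl2, Cxcl1 and Cxcl12 alone and cannot be set against the others. For this fit and the one with the third column the share of all genes called is not given. Their counts are therefore not a result about the members. A term for male arrays called 2 against Ets2 null, Ccl7 and Cxcl1, where 0.517% of genes were called higher. It no longer called Ccl5 (2.33, adjusted p = 0.062), and it rests on wild type array 1 against the other wild type arrays.

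Directions turned in differences that were not called, and the cause was not tested. Cxcl12 in Ets1 null minus wild type, -0.04 with all arrays, ranged from -1.23 to 1.45 when an array was left out (0.24 without Ets1 null array 2). In Ets2 null minus wild type it was -0.74 with array weights. In the arrays labelled Ets1/2 null minus wild type, leaving out an array gave -2.62 to 0.33 for Ccl2, -2.19 to 0.37 for Ccl7, -0.31 to 0.49 for Ccl5 and -1.43 to 1.25 for Cxcl12. There median centring gave 0.48 and quantile normalisation 0.31 for Cxcl12, array weights -0.22 for Ccl5, and the term for male arrays 0.33 for Ccl2 and 0.37 for Ccl7. Against Ets1 null, leaving out an array gave -0.12 to 0.064 for Cxcl1 and -0.92 to 0.53 for Cxcl12. For Cxcl1 and Cxcl12 there, centring gave 0.73 and 0.56, quantile normalisation 0.65 and 0.36, and the mean of probe sets 1.28 and 0.12, with 0.064 for Cxcl12 under array weights. The Cxcl12 interaction was 0.80 with array weights.

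Same-numbered arrays did not deviate together more than differently numbered ones (median correlation -0.056 against 0.008), a check limited by the mirrored pairs of Ets1/2 null. With the replicate number as a block, the interaction was 6.84 for Ccl2 (limma adjusted p = 0.0463), 5.32 for Ccl7 (0.0595) and 3.20 for Ccl5 (0.00996). Ccl2 and Ccl5 were thus still called and Ccl7 was not. Median centring with each array left out was chosen after seeing the data, and under it the interaction was called in 11 of 11 fits for Ccl5, 2 for Ccl2 and 3 for Ccl7.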
